A study of Homo sapiens with 30 samples.

Results

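Keratin genes were followed across 30 poly(A) RNA-seq libraries of human cell lines. A gene was included when it is protein coding and its symbol is KRT followed by a number and at most 1 further letter, which leaves out the keratin-associated proteins. This gave 55 genes of the 60664 counted, matched by Ensembl identifier, of which 28 encode type I keratins, 26 encode type II keratins and KRT222 is a keratin-like gene. They stand in 2 clusters in hg38, with 27 genes between 52168996 and 52952906 on chromosome 12 (the type II genes and KRT18) and 28 genes between 40654665 and 41624842 on chromosome 17 (the other type I genes and KRT222).

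Keratins are the intermediate filament proteins of epithelial cells. A filament is built from pairs of 1 type I and 1 type II chain, and cells usually make the partners together: KRT8 with KRT18 in simple epithelia such as the lining of the colon, KRT5 with KRT14 in the basal layer of stratified epithelia, and a large set of harder keratins in the hair shaft. KRT19 and KRT20 are further simple epithelial type I keratins, and KRT20 is the keratin of differentiated cells of the intestinal lining. Blood cells are not keratin-producing cells, although leukemia lines can carry low amounts of the simple epithelial keratins.

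Wild-type K562 cells (a chronic myeloid leukemia line) and wild-type HCT116 cells (a colorectal carcinoma line) were grown for 3 days with DNMT1i at 10 µM, an inhibitor of the maintenance DNA methyltransferase DNMT1, or with 0.1% DMSO. HT-CTCF cells are HCT116 cells in which CTCF, the factor that anchors chromatin loops, carries a HaloTag. They received DNMT1i or DMSO for 1 day, each without or with HaloPROTAC3, a compound that directs HaloTag proteins to degradation and that was given before and during the treatment. K562 speckle cells carry degron tags on SON and SRRM2, the core proteins of nuclear speckles, and received dTAG-13 at 500 nM or 0.1% DMSO for 6 hr. Each of the 10 groups held 3 separate cultures. Both tagged lines were grown from single-cell clones, so clone and tag cannot be told apart in them, and the SRRM2 tag also takes away the last few residues of the protein.

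Libraries of the wild-type and speckle cells held between 16173008 and 21228534 counts assigned to genes, and those of HT-CTCF cells were shallower, at 4243092 to 9407430. Levels below are CPM, the count of a gene scaled to a common total of gene-assigned reads in each library, which is a scale for comparing 1 gene between samples, and CPM per kilobase of merged exon where genes are compared. Within the K562 DMSO group, replicate 3 stood apart: the chi-square per degree of freedom between its gene counts and those of the other 2 libraries was 27.7 and 26.2, against 2.31 between those 2. Results that change without it are given with the value they then have. Lists of marker genes were set beside the labels of the lines. Of 13 colon epithelial markers, 7 reached a mean of 1 CPM in HCT116 cells with DMSO and 2 did in K562 cells. Of 14 erythroid markers, 13 did so in K562 cells and 3 in HCT116 cells. In cultures as a whole, fewer cells that make a transcript and less transcript per cell cannot be told apart.

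Promoter windows are shown for KRT12 and KRT20, which had among the widest changes after DNMT1i, and for KRT8, the main type II keratin of these cells, because DNMT1 maintains methylation at CpG sites. They are RefSeq windows on the minus strand of GRCh38.p14, read 5′ to 3′ across the annotated start, and the capitals mark each CpG. KRT12 was read at chr17:40867174-40867473, KRT20 at chr17:40885193-40885492 and KRT8 at chr12:52926420-52926719. The RefSeq start of KRT8 lies inside the longer span that GENCODE gives the gene, 52897187 to 52949954. Which start the KRT8 RNA of these cells used was not tested.
KRT12: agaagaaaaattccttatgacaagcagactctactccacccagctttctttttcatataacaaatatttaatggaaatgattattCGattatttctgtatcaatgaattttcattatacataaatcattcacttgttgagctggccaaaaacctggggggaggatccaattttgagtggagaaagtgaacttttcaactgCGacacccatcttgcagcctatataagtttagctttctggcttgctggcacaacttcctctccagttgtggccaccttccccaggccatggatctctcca
KRT20: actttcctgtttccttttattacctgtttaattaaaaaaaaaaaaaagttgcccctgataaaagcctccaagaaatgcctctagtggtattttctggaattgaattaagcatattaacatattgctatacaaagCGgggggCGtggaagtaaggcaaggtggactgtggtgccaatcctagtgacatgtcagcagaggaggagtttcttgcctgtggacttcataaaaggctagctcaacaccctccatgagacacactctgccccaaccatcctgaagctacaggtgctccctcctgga
KRT8: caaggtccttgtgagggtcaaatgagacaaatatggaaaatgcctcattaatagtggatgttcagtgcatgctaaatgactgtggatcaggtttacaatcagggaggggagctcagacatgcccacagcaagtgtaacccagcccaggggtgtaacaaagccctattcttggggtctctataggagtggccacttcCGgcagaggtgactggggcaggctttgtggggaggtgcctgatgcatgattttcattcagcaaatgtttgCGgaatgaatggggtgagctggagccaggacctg

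Each of these windows held 2 CpGs. RefSeq windows were found for 34 of the 55 genes, and their median was 2 CpGs with a range of 0 to 8, against a median of 14 over 27305 gene windows of the same length. None of the 34 keratin windows held 10 or more CpGs, which 56.0% of all windows did. No window was found for KRT18, KRT19, KRT7, KRT23, KRT80, KRT81, KRT17, KRT14, KRT13, KRT6A or KRT222. These window values therefore leave out most keratins called in HCT116 cells after DNMT1i. The letters TATAAA, searched on both strands, were in 20 of the 34 keratin windows (58.8%) and in 12% of all windows. None of the 3 windows printed above holds those letters.

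KRT8, KRT18 and KRT19 made up nearly all keratin RNA in the colorectal cells. In HCT116 cells with DMSO the 55 genes summed to 3575 CPM ± 170 (SD, n = 3), and the 3 genes gave 96.0% of it. K562 cells with DMSO held 436 CPM ± 69.6 (SD, n = 3), with 87.8% from the same genes, and speckle cells with DMSO held 896 CPM ± 103 (SD, n = 3). HT-CTCF cells with DMSO and no HaloPROTAC3 held 3533 CPM ± 455 (SD, n = 3). KRT33A, a hair shaft keratin, was the 1 member with no count in any library.

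Per kilobase, KRT19 at 404 ± 31.3 and KRT18 at 371 ± 19.8 (SD, n = 3) led in HCT116 cells with DMSO, and their ranges overlapped. KRT8 followed at 196 ± 9.02, and KRT10, KRT23 and KRT7 came next at 17.7, 12.9 and 8.28 CPM per kilobase. In K562 cells with DMSO, KRT18 led at 53.3 CPM per kilobase, followed by KRT19 at 26.2, KRT10 at 23.8 and KRT8 at 23.0, whose ranges overlapped. The place of KRT8 depends on the length used, because its merged exons are much longer than its longest transcript. By the longest transcript KRT8 came second in K562 cells, at 55.3 CPM per kilobase against 78.3 for KRT18.

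**Figure D1:**
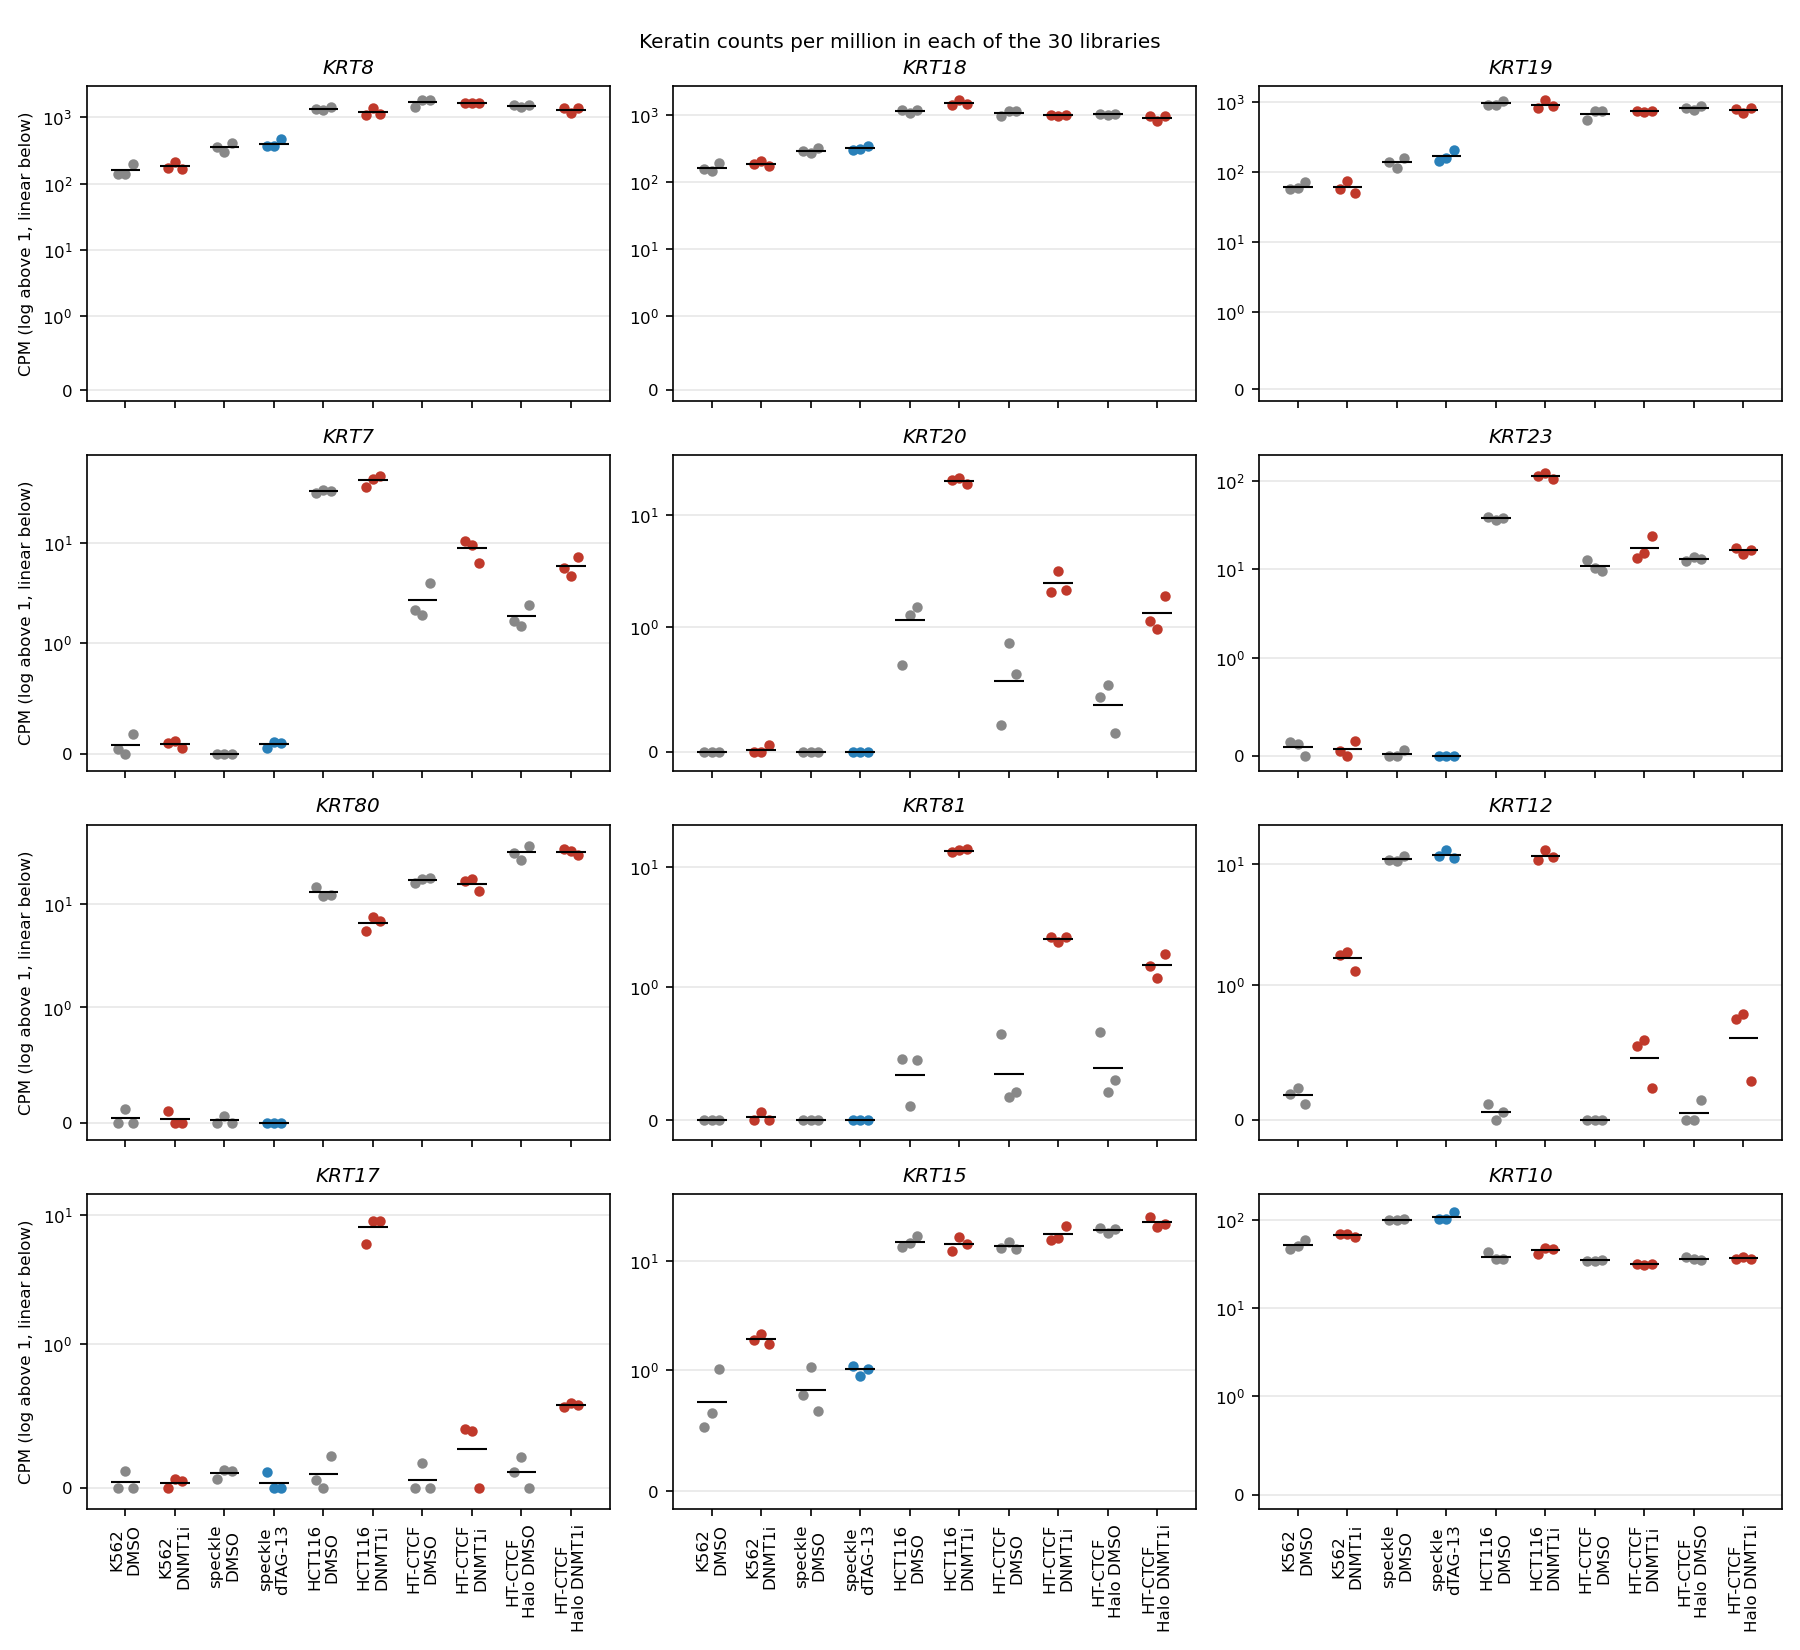
Level of 12 keratin genes in every library (CPM, logarithmic above 1 and linear below it), with groups along the horizontal axis. Each point is 1 library and each black bar the mean of 3. Points are grey for DMSO, red for DNMT1i and blue for dTAG-13, and Halo stands for HaloPROTAC3. KRT8, KRT18 and KRT19 were high in every HCT116 and HT-CTCF library, whereas KRT20 and KRT81 were near 0 in every K562 library.

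The HCT116 and K562 lines were compared in DMSO first, as the ground from which each line started. By edgeR's quasi-likelihood test with Benjamini-Hochberg adjustment over all genes, 20 of the 55 keratins had enough counts to be tested, 14 were higher in HCT116 cells and 1, KRT10, was lower. Over all 17237 genes tested, 39.6% were higher and 36.9% lower. KRT20, KRT81, KRT86 and KRT222 had 0 counts in the K562 DMSO libraries, so they could be called only as higher in HCT116 cells. KRT7, KRT13, KRT16, KRT23 and KRT80 passed the filter on low counts only through HCT116 libraries, so the same holds for them. KRT32 and KRT81 were under the limit of the filter in every DMSO library and passed it through the HCT116 libraries with DNMT1i. KRT8 was at 1324, 1302 and 1419 CPM in the 3 HCT116 libraries and at 141, 141 and 194 in the K562 libraries. That is a log2 difference of 3.10 ± 0.13 (SE), and the groups were far apart. KRT18 differed by 2.81 ± 0.11 and KRT19 by 3.96 ± 0.14 on the log2 scale.

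Several keratins present in HCT116 cells were close to absent in K562 cells. KRT23, an epithelial type I keratin, was at 38.8, 36.4 and 37.6 CPM against at most 0.143 in K562. KRT80, a type II keratin found in most epithelia, had 692 counts over the 3 HCT116 libraries against 2 in K562, a ratio of 351 (95% interval 96.9 to 2907, counting error only). KRT20 was at least 21.3-fold higher in HCT116 cells, set against a floor of 3 counts over the K562 group, which held 0. KRT10, the partner of KRT1 in the upper epidermis, went the other way, at 51.4 CPM ± 6.06 in K562 and 38.2 ± 4.40 in HCT116 (SD, n = 3), and its log2 difference was -0.41 ± 0.10 (SE). Its exons overlap those of KRT10-AS1 on the opposite strand, and reads of the pair cannot be told apart without knowing how strand was treated in counting. KRT12 had 3 counts in HCT116 and 10 in K562 cells and was called lower only without HCT116 DMSO replicate 1 (adjusted p = 0.0314).

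After 3 days of DNMT1i, HCT116 cells carried counts of more keratin genes and more RNA of several that had been near 0. With DMSO, 31 of the 55 had at least 1 count over the 3 libraries and 11 reached a mean of 1 CPM. After DNMT1i these numbers were 43 and 17. The same numbers over all genes were not taken, so the gain is not read as particular to keratins. Of the 20 keratins with enough counts to test, 12 rose and 3 fell by edgeR's quasi-likelihood test (adjusted p below 0.05 over all genes). Over all 15885 genes tested 33.8% rose and 27.9% fell. KRT14 and KRT6A had 0 counts over the DMSO libraries and KRT12 had 3. These could pass the low count filter only through the DNMT1i libraries, so they could be called only as higher. The same holds for KRT17, KRT32, KRT34 and KRT81, which were under the limit of the filter in every DMSO library. KRT222 was under it in every DNMT1i library and could be called only as lower. The numbers of 12 and 3 are in part set by that filter, which was also applied to all genes. A fold change is taken after TMM scaling, which set the median of all genes at a log2 change of 0.02. Without that factor the median was 0.13, so small changes are read against it.

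Among the simple epithelial keratins, KRT20 had the widest change. KRT20 was at 0.692, 1.29 and 1.52 CPM in the DMSO libraries and at 20.4, 21.1 and 18.8 CPM after DNMT1i. The groups did not overlap, and the log2 change was 3.99 ± 0.17 (SE; adjusted p = 1.44e-13). KRT7, a type II keratin of ducts and glands, was at 31.9, 34.3 and 33.2 CPM with DMSO and at 36.7, 44.1 and 47.3 CPM after DNMT1i. Its log2 change of 0.26 ± 0.09 passed the test (adjusted p = 0.022), but not in a fit of all 12 wild-type libraries (0.0756), nor without DMSO replicate 1 (0.0934), DMSO replicate 3 (0.0545) or DNMT1i replicate 3 (0.157). Exons of KRT7 overlap those of KRT7-AS and KRT87P on the opposite strand. Without the strand setting, reads of KRT7 and of these genes cannot be told apart. Of the 50-base stretches of KRT7, 11.7% (30.7% in the 3′ of 3 equal parts) are shared with other KRT genes, mostly with KRT7-AS. Shared sequence was searched only among KRT genes, meaning those named KRT and a number, with their pseudogenes and antisense genes.

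KRT8 and its partner KRT18 moved in opposite directions. KRT18 was at 1181, 1070 and 1168 CPM with DMSO and at 1413, 1695 and 1468 CPM after DNMT1i, a rise of 0.31 ± 0.08 on the log2 scale (adjusted p = 0.00166). KRT8 was at 1324, 1302 and 1419 CPM and then at 1070, 1394 and 1130 CPM. These groups overlapped, with DNMT1i replicate 2 inside the DMSO range. KRT8 fell by 0.28 on the log2 scale (SE 0.08; adjusted p = 0.0079), a call that was lost without DNMT1i replicate 1 (0.0562), without replicate 3 (0.0566) and with no composition factor (-0.17 ± 0.09, 0.122).

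The ratio of KRT8 to KRT18 counts within a library needs no scaling between libraries. It ran from 1.12 to 1.22 with DMSO and from 0.757 to 0.822 after DNMT1i, so the groups did not overlap. In K562 cells it was 0.965 ± 0.046 with DMSO and 0.969 ± 0.042 after DNMT1i (SD, n = 3). The genes lie next to each other on opposite strands with overlapping annotated exons, and none of the sources used here gives the strand setting that was used for counting. Both counts are therefore uncertain to that extent. Sequence shared with other KRT genes at 50 bases or more covered 22.1% of the KRT8 and 33.4% of the KRT18 transcript. The annotated pseudogenes of KRT8 held between 2.01% and 6.15% as many counts as the gene.

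KRT19, which has no fixed type II partner of its own and often pairs with KRT8, was at 894, 910 and 1028 CPM with DMSO and 807, 1045 and 857 CPM after DNMT1i. The groups overlapped, and its log2 difference was -0.17 with an adjusted p of 0.0916. Without DNMT1i replicate 2, the highest of its group, KRT19 was called lower (-0.27, adjusted p = 0.00417), as it was with no filter on low counts (0.0486).

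**Figure D2:**
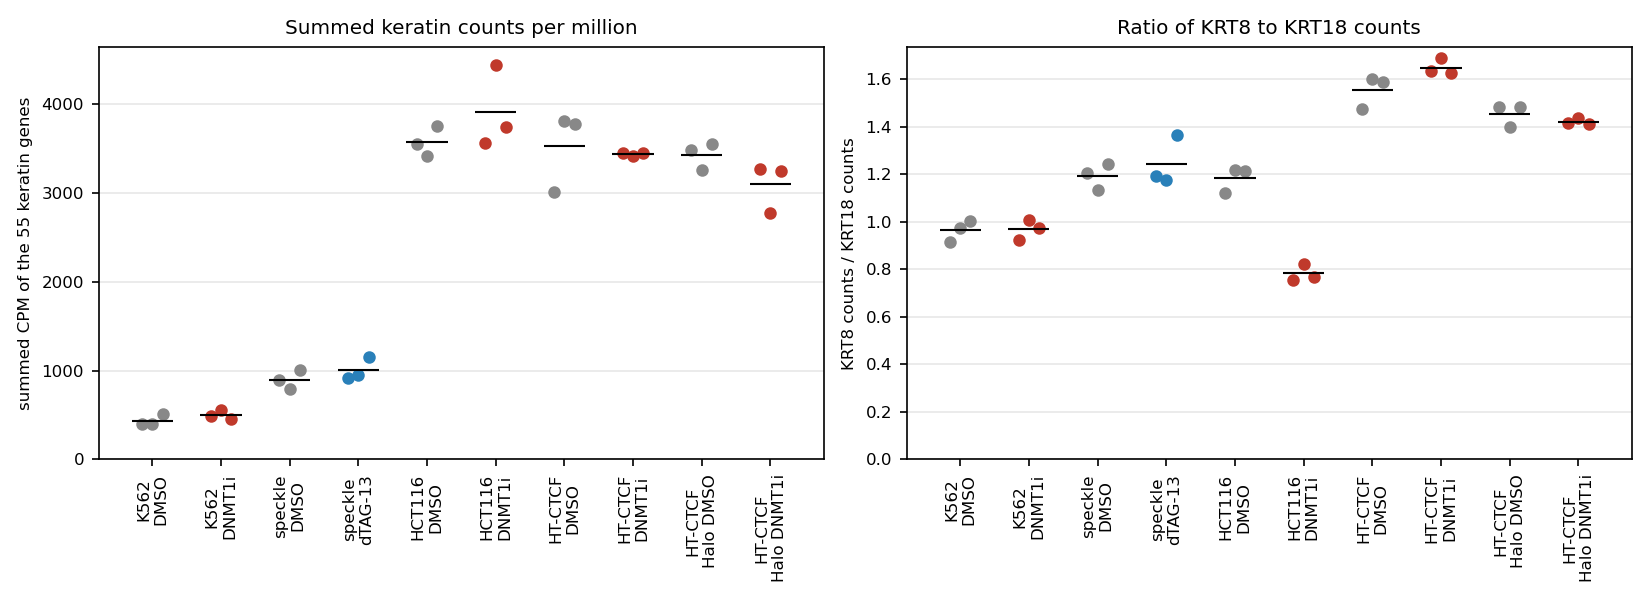
Summed level of the 55 keratin genes in CPM and ratio of KRT8 to KRT18 counts, for each library by group. Points are libraries and bars are means of 3, grey for DMSO, red for DNMT1i and blue for dTAG-13. The ratio of the HCT116 libraries dropped from a mean of 1.18 to 0.783 with no overlap, while the summed level of the group moved from 3575 to 3917 CPM.

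Several basal and stress keratins rose from almost nothing. KRT14, the basal type I keratin, had 0 counts in each DMSO library and 1.29, 1.79 and 2.19 CPM after DNMT1i. With 101 counts against a floor of 3 over the group, this was at least 31.7-fold higher (adjusted p = 5.53e-08). KRT5, its type II partner, had 2 counts over the DMSO libraries and 12 after DNMT1i, too few to be tested. KRT6A, a type II keratin induced in wounded epidermis, went from 0 counts to 47, at least 14.8-fold higher.

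KRT17, a type I stress keratin, was at 0.058, 0 and 0.225 CPM with DMSO and at 6.03, 9.09 and 9.08 CPM after DNMT1i. Its log2 change was 6.24 ± 0.38 (adjusted p = 2.31e-11) and the groups were far apart. KRT16, the usual partner of KRT6A, was at 0.634, 0.696 and 0.620 CPM with DMSO and at 0.351, 0.989 and 0.694 CPM after DNMT1i. Those groups overlapped, and the log2 difference was -0.01 (adjusted p = 0.987). KRT15, a basal type I keratin already present, was at 13.3, 14.5 and 16.7 CPM and then at 12.2, 16.3 and 14.2 CPM, with a log2 difference of -0.16 (adjusted p = 0.256). Of the KRT6A transcript, 39.2% was shared with other genes at 50 bases or more, and the shares were 21.7% for KRT14 and 10.6% for KRT17, so their counts may hold reads of close relatives.

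Among suprabasal and mucosal keratins, KRT12, the type I keratin of the cornea, changed most. It was at 0.115, 0 and 0.056 CPM with DMSO and at 10.8, 13.2 and 11.4 CPM after DNMT1i. From 3 counts to 677 over the group this is a ratio of 213 (95% interval 72.5 to 1034, counting error only; adjusted p = 8.83e-14). Exons of KRT12 overlap those of ENSG00000265359 on the opposite strand, so without the strand setting the reads of the pair cannot be told apart. KRT3, which pairs with KRT12 in the cornea, was not among the genes with enough counts to be tested.

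KRT23 was at 38.8, 36.4 and 37.6 CPM with DMSO and at 114, 122 and 107 CPM after DNMT1i, a log2 rise of 1.49 ± 0.08 (adjusted p = 2.64e-12). KRT13, a type I keratin of mucosal linings, was at 0.980, 0.857 and 1.18 CPM and then at 4.16, 4.90 and 4.75 CPM, a log2 rise of 2.09 ± 0.20 (adjusted p = 3.33e-08). KRT80 fell by 1.07 on the log2 scale (SE 0.13; adjusted p = 6.97e-07), from 14.5, 11.9 and 12.3 CPM to 5.45, 7.40 and 6.89 CPM. The groups did not overlap for any of these genes. KRT10 was at 43.3, 35.7 and 35.7 CPM and then at 40.9, 47.3 and 46.8 CPM, and its log2 difference of 0.13 did not pass (adjusted p = 0.227), although KRT10 was called higher with no composition factor (0.0397).

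The hair shaft keratins, as a class of 17 genes, summed to 1.88 CPM ± 0.21 with DMSO and to 18.5 ± 0.90 after DNMT1i (SD, n = 3), and those with at least 1 count went from 10 to 15. KRT81, a type II hair keratin, carried most of this. It was at 0.461, 0.107 and 0.451 CPM with DMSO and at 13.3, 13.8 and 14 CPM after DNMT1i. The groups were far apart, with a log2 change of 5.22 ± 0.23 (adjusted p = 1.86e-13). KRT34 rose from at most 0.173 CPM to 0.878, 1.13 and 1.01 CPM, by 3.55 ± 0.53 on the log2 scale (adjusted p = 8.21e-06). KRT32 rose from 0.288, 0.268 and 0.338 CPM to 1.23, 1.51 and 1.07 CPM, by 1.97 ± 0.34 (adjusted p = 4.25e-05). KRT34 and KRT32 are type I keratins of the hair shaft.

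KRT86, the hair keratin next to KRT81, had 0.576, 0.803 and 0.564 CPM with DMSO and 1.05, 1.32 and 0.962 CPM after DNMT1i. These groups did not overlap, but the log2 difference of 0.67 ± 0.30 did not pass (adjusted p = 0.0583), although it did without DMSO replicate 2 (0.0456) and with no composition factor (0.0306). The inner root sheath keratins, 9 genes that line the growing hair, summed to 0.0192 CPM with DMSO and 0.378 CPM after DNMT1i, and none had enough counts to be tested. KRT222 fell by 2.05 on the log2 scale (SE 0.37; adjusted p = 7.5e-05), from 1.96, 1.23 and 1.35 CPM to 0.527, 0.141 and 0.534 CPM. An unnamed gene shares exons with KRT222 on the same strand, which makes its count uncertain.

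**Figure D3:**
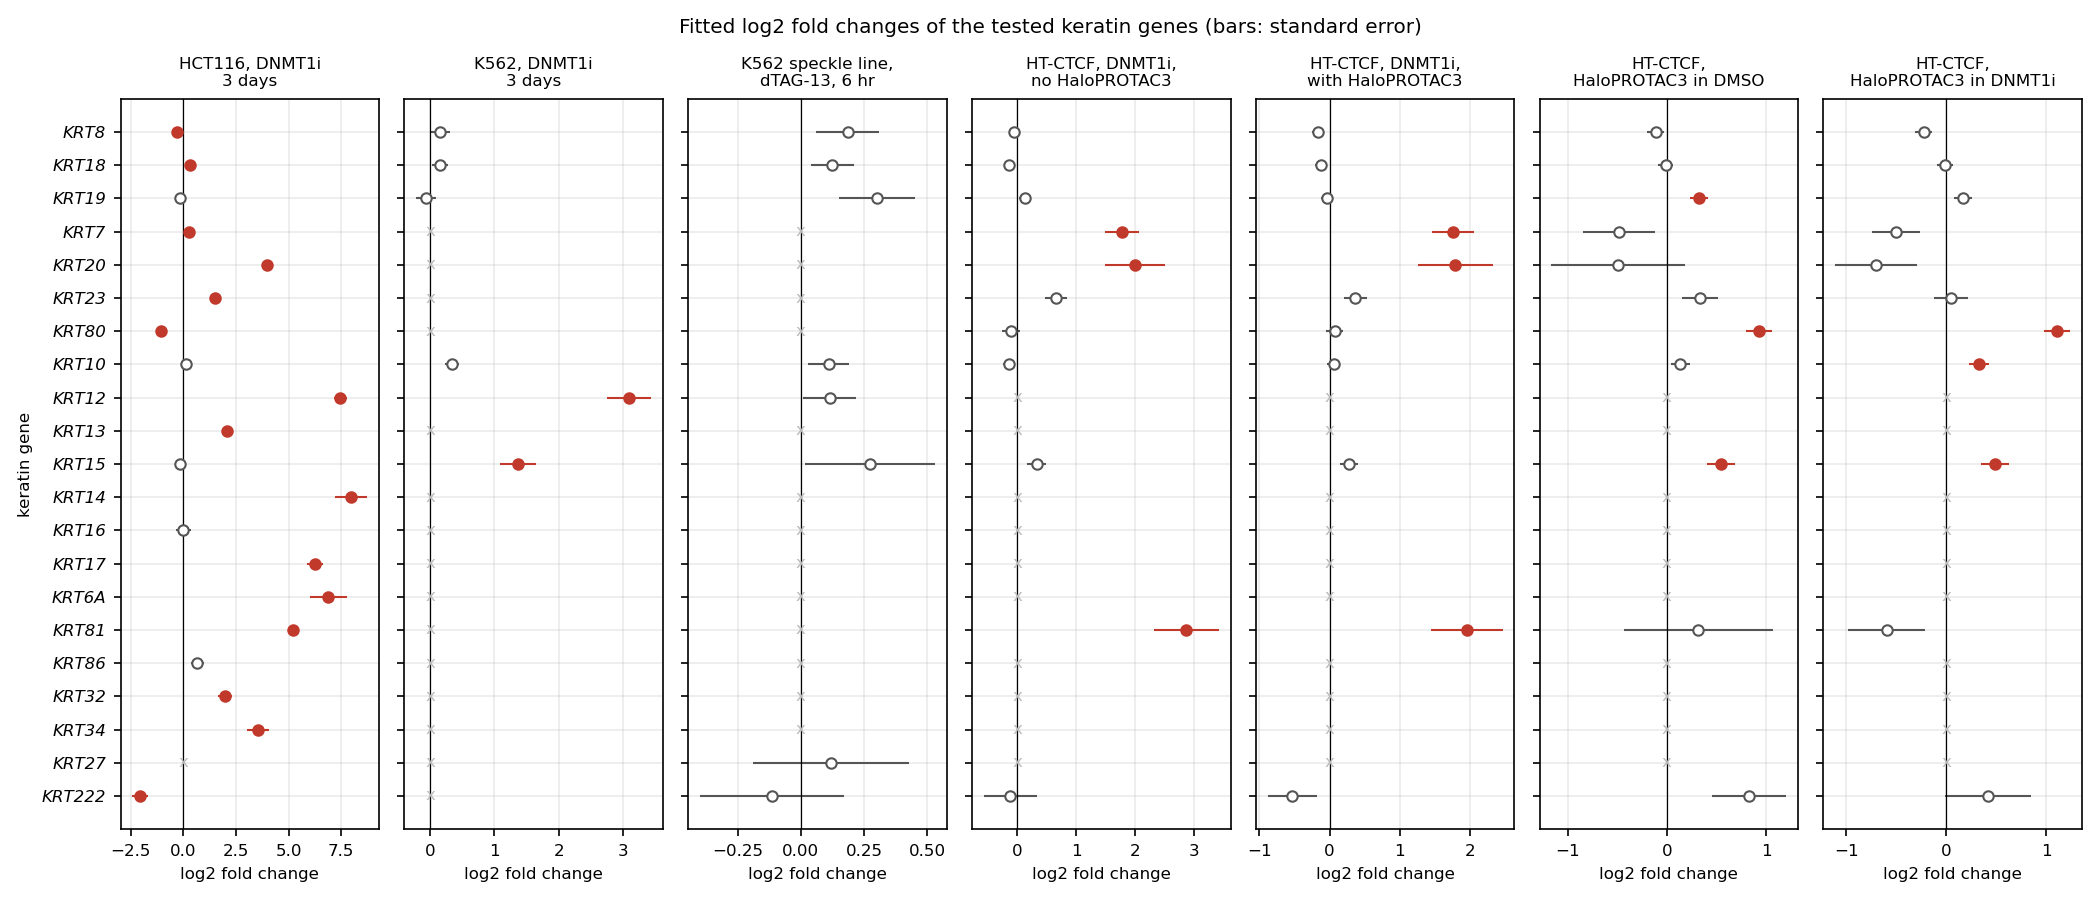
Log2 fold change of each tested keratin in each comparison, 1 panel per comparison with its own horizontal range. Filled red points passed an adjusted p of 0.05, open points did not, bars are standard errors and a grey cross marks a keratin with too few counts to be tested. In HCT116 cells 12 red points lie above 0 and 3 below, and the speckle line has no red point among its 8.

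In chromosomal order the HCT116 changes were not uniform within either cluster. On chromosome 17, KRT10 (40818117 to 40822614), KRT12 (40861303 to 40867223), KRT20 (40875889 to 40885242) and KRT23 (40922700 to 40937646) follow one another on the minus strand. KRT10 was not called, and the next 3 rose by 7.46, 3.99 and 1.49 on the log2 scale. At the far end of this cluster KRT15 and KRT19 were not called, while KRT14 and KRT17 rose and KRT16 was not called. On chromosome 12, KRT80 (52168996 to 52192014) fell at one end. KRT81 (52285913 to 52291534) rose, and KRT8 and KRT18, neighbours at the other end, moved in opposite directions.

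**Figure D4:**
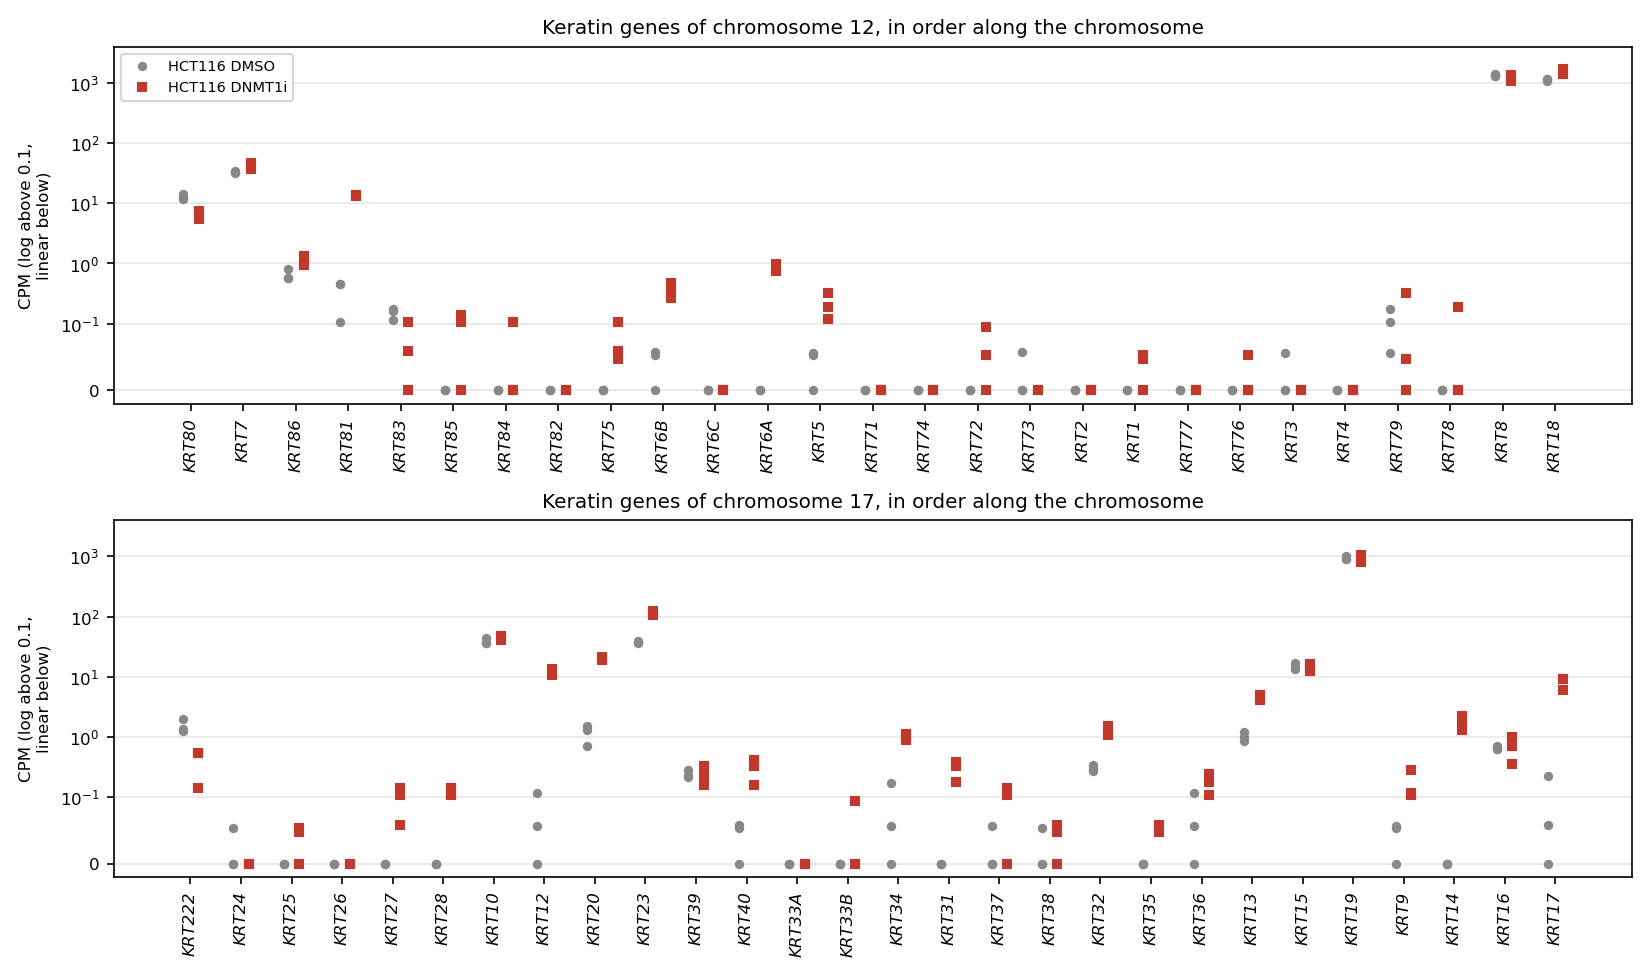
Level of each keratin gene in HCT116 cells (CPM, logarithmic above 0.1 and linear below it), with the genes of each cluster in their order along the chromosome (rank, not distance). Grey circles are the 3 DMSO libraries and red squares the 3 DNMT1i libraries. KRT12, KRT20 and KRT23 stand side by side on chromosome 17 with the red squares above the grey circles, while KRT8 and KRT18 at the end of chromosome 12 lie close together in both groups.

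Counts per exon bin showed where along each gene the reads fell. KRT20 reads covered all 10 of its 10 exon bins after DNMT1i, with 2027 bin reads against 116 with DMSO. KRT12 reads covered 16 of 20 bins, with 1463 bin reads against 5. Neither transcript shared a stretch of 50 bases with another KRT gene, the only genes searched. The gene ENSG00000265359, whose exons overlap those of KRT12, was not among them. KRT17 had reads in 30 of 31 bins and KRT14 in 11 of 12.

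KRT81 differed from these. After DNMT1i it had 1161 bin reads in the 8 bins at its 3′ end (1125 bases) and 2 reads in the 5 bins at its 5′ end (804 bases). With DMSO the numbers were 27 and 2. Split into 3 equal parts, the KRT81 transcript shared 79.5% of its 50-base stretches with other KRT genes in its 5′ part, mostly with KRT86. In its 3′ part it shared 2.56%. Reads of shared sequence that were left uncounted and transcripts that lack the 5′ exons cannot be told apart in these bins.

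**Figure D5:**
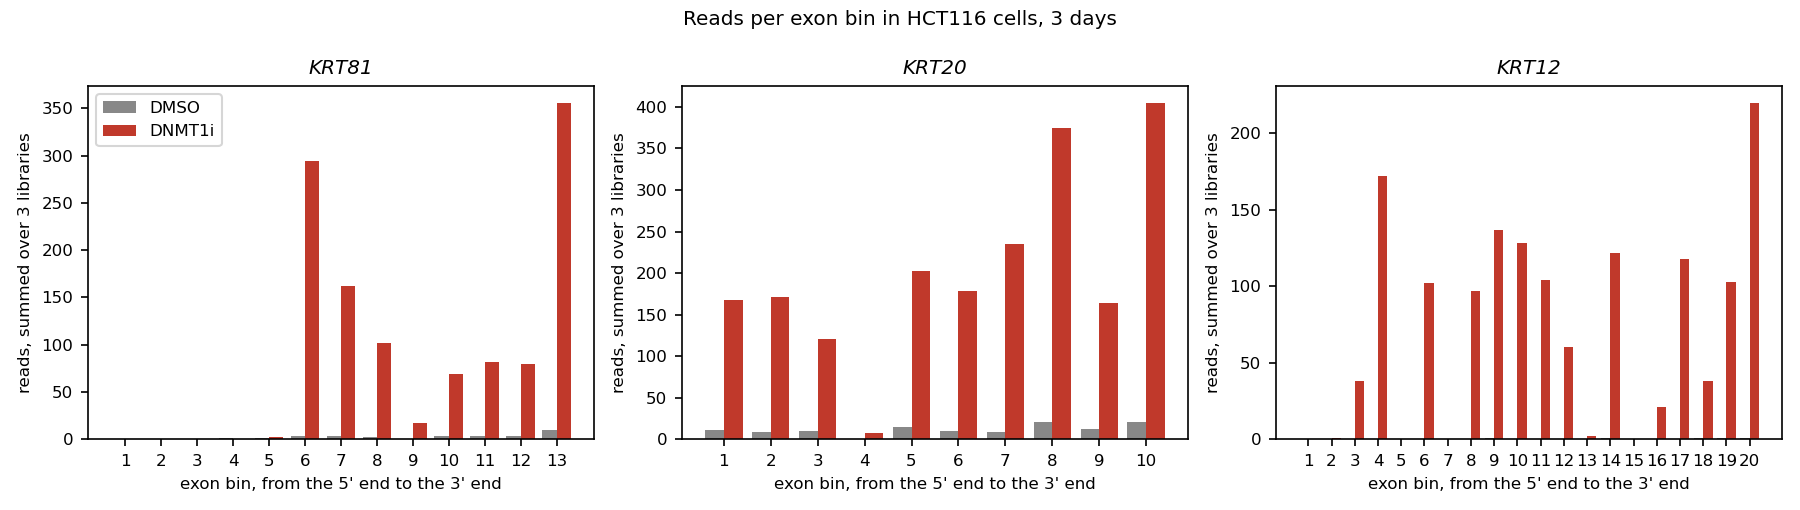
Reads per exon bin of KRT81, KRT20 and KRT12 in HCT116 cells, summed over the 3 libraries of each group on a linear axis from 0, with bins numbered from the 5′ end of the gene. Grey bars are DMSO and red bars DNMT1i. After DNMT1i KRT20 had reads in all 10 bins and KRT12 in 16 of 20, whereas the 5 bins at the 5′ end of KRT81 held 2 reads in all.

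Markers of colon epithelium moved in these same libraries. The summed level of the 13 colon markers was 792 to 841 CPM with DMSO and 510 to 561.5 CPM after DNMT1i, and 7 and then 8 of them reached a mean of 1 CPM. EPCAM, the highest of those tested, went from 360 to 237 CPM. Of 9 colon markers tested 3 rose (CDX1, CDX2 and LGALS4) and 5 fell, against 33.8% and 27.9% of all genes. CDX1 and LGALS4 passed the low count filter only through the DNMT1i libraries. CDX1 was at 0 with DMSO and GPA33 at 0 after DNMT1i. The part of this shift in the keratin changes was not tested.

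The other intermediate filament genes gave a comparison outside the keratins. Of 17 such genes 14 could be tested in HCT116 cells, 8 rose and 4 fell, with a median log2 change of 1.26 against 0.02 over all genes. Of all genes tested, 33.8% rose and 27.9% fell. NEFH, INA, IFFO1 and NEFL passed the low count filter only through the DNMT1i libraries. They could be called only as higher, and they raise the median of the list. VIM, which encodes vimentin of mesenchymal cells, was at 9.31 CPM ± 0.27 with DMSO and 679 ± 40.7 after DNMT1i (SD, n = 3), a log2 change of 6.08 ± 0.09 (adjusted p = 1.69e-20). The neuronal filament genes NEFH and INA each had 1 count with DMSO, and 1730 and 1093 after DNMT1i.

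Among 24 genes of desmosomes and keratin linkers, 20 were tested, 6 rose and 9 fell, with a median of -0.07. Shares over all genes were 33.8% higher and 27.9% lower. The 3 genes of smallest p, given next, all rose, although more of the list fell. TRIM29, PKP1 and DSG3 passed the low count filter only through the DNMT1i libraries, so they could be called only as higher. TRIM29, whose product associates with KRT14 in basal cells, went from 0.261 to 5.39 CPM (log2 change 4.24 ± 0.28, adjusted p = 9.23e-11). EPPK1, which encodes the keratin-binding epiplakin, went from 14.1 to 36.6 CPM (1.28 ± 0.13, adjusted p = 3.4e-08). PKP1, a desmosomal plaque gene of stratified epithelia, had 2 and then 174 counts.

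Among 21 epithelial transcription factor genes, 18 were tested, 11 rose and 4 fell, with a median of 0.48. Shares over all genes were 33.8% higher and 27.9% lower. TP63, the regulator of basal epithelial identity, went from 3 to 579 counts, a ratio of 182 (95% interval 62.0 to 885, counting error only). TP63, FOXA2, CDX1 and GATA4 passed the low count filter only through the DNMT1i libraries, so they could be called only as higher. GRHL2, a regulator of simple epithelia, fell by 1.62 on the log2 scale, from 39.5 to 13.8 CPM. EHF, an epithelial factor of the ETS family, fell by 1.17, from 149 to 71.2 CPM.

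In K562 cells few keratins had enough reads to be tested. Of the 55, 6 were tested, and 2 rose and none fell by edgeR's quasi-likelihood test, with 3 of the 6 at an unadjusted p below 0.05 and the same 2 called by DESeq2. Over all 13726 genes tested 6.47% rose and 2.38% fell. KRT12 passed the low count filter only through the DNMT1i libraries, so it could be called only as higher. KRT15 was close to the limit of the filter with DMSO. The number of 2 is therefore in part set by the filter. KRT12 was at 0.191, 0.234 and 0.120 CPM with DMSO and at 1.79, 1.89 and 1.32 CPM after DNMT1i. The groups did not overlap, and the log2 change was 3.10 ± 0.35 (adjusted p = 0.000181).

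KRT15 was at 0.526, 0.645 and 1.02 CPM with DMSO and at 1.89, 2.13 and 1.73 CPM after DNMT1i, also without overlap. Its log2 change of 1.36 ± 0.28 passed (adjusted p = 0.0124), but not without DMSO replicate 1 (0.0533), DMSO replicate 2 (0.0530) or DNMT1i replicate 2 (0.0603). KRT10 was at 46.2, 49.9 and 58.0 CPM and then at 68.6, 68.3 and 63.6 CPM. The groups did not overlap, and the log2 difference of 0.34 ± 0.11 had an adjusted p of 0.0904, which was 0.0386 in the fit of 12 libraries and 0.0478 with no filter on low counts.

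KRT8 was at 141, 141 and 194 CPM with DMSO and at 172, 208 and 165 CPM after DNMT1i, and KRT18 at 153, 144 and 193 CPM and then at 185, 206 and 170 CPM. Both overlapped between groups, with log2 differences of 0.15 and 0.15. Without K562 DMSO replicate 3, in which both were highest within their group, 5 keratins were called higher (KRT8, KRT10, KRT12, KRT15 and KRT18) in place of 2, with log2 changes of 0.34 for KRT8, 0.30 for KRT18 and 0.45 for KRT10. The hair shaft keratins summed to 0.0756 CPM with DMSO and 0.0734 CPM after DNMT1i. KRT20 and KRT81 each had 0 counts with DMSO and 1 after DNMT1i. Among the other intermediate filament genes 3 of 11 tested rose (NES, IFFO1 and DES). KRTCAP3 rose and DST fell among 15 desmosome and linker genes, and FOXA2 rose among 6 transcription factor genes. IFFO1 and KRTCAP3 passed the low count filter only through the DNMT1i libraries, so they could be called only as higher. Shares over all genes were 6.47% higher and 2.38% lower.

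Markers of both cell types moved in the K562 libraries too. The 14 erythroid markers summed to 1789 to 1845 CPM with DMSO and to 1314 to 1488 CPM after DNMT1i. In both groups 13 of them were at a mean of 1 CPM or more. TFRC, the highest of those tested, went from 1250 to 787 CPM. Of 13 erythroid markers tested 2 rose (HBA2 and HBZ) and 1 fell (TFRC), with a median log2 change of 0.09. The 13 colon markers summed to 87.1 to 96.0 CPM and then to 158 to 167 CPM, and 2 and then 4 of them reached a mean of 1 CPM. All 4 colon markers tested rose (CDH1, EPCAM, CLDN7 and VIL1). CDH1 and VIL1 passed the low count filter only through the DNMT1i libraries. Of all genes, 6.47% rose and 2.38% fell. CEACAM5 and GPA33 were at 0 in both groups and CDX1 at 0 after DNMT1i. The part of these shifts in the keratin changes of K562 cells was not tested.

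The difference between the lines in their response to DNMT1i was tested in 1 fit of the 12 wild-type libraries. Of 20 keratins tested 2 had a higher response in HCT116 cells and 1 a lower one, against 15.7% and 14.1% of all 17237 genes. KRT12 rose in both lines, and by 4.35 ± 0.79 more on the log2 scale in HCT116 cells (adjusted p = 0.000358). The response of KRT15 was 1.53 lower in HCT116 cells, a log2 difference of -1.53 ± 0.30 (adjusted p = 0.00068). KRT17 had a difference of 6.30 ± 2.21 (adjusted p = 0.037), but it had only 2 counts in each K562 group, and without K562 DMSO replicate 2 the difference was 3.57 with a standard error of 22.5 (adjusted p = 0.973). It was also not called without K562 DNMT1i replicate 1 (0.0574), HCT116 DMSO replicate 1 (0.0557) or HCT116 DNMT1i replicate 3 (0.0508). For KRT8 the difference of -0.44 ± 0.17 had an adjusted p of 0.0624, and it was called without HCT116 DNMT1i replicate 2 (-0.55, adjusted p = 0.0204).

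Without K562 DMSO replicate 3, the library that stood apart, 3 keratins had a higher response in HCT116 cells and 3 a lower one. The added genes were KRT23 (2.34, adjusted p = 0.0444), KRT8 (-0.63, 0.000224) and KRT10 (-0.33, 0.0397). KRT23 was also called without K562 DNMT1i replicate 3 (0.0479). KRT81 had 0 and 1 counts in the K562 groups, and its difference of 3.35 had a standard error of 15.3 in edgeR and was called by DESeq2 (4.42 ± 1.72, adjusted p = 0.0434).

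In HT-CTCF cells a shorter treatment of 1 day raised 3 keratins, each of which also rose in wild-type HCT116 cells at 3 days. The cell line, the time and the depth differ between these experiments, so their values stand side by side without a test. Of 11 keratins with enough counts, 3 rose and none fell without HaloPROTAC3 (5 at an unadjusted p below 0.05). Of 12690 genes tested 1.98% rose and 0.504% fell. KRT20 and KRT81 were under the limit of the low count filter in every DMSO library and passed it through DNMT1i libraries. These 2 could therefore be called only as higher.

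KRT7 was at 2.15, 1.92 and 3.96 CPM with DMSO and at 10.6, 9.63 and 6.36 CPM after DNMT1i, a log2 change of 1.78 ± 0.29 (adjusted p = 0.000199). The overlap of KRT7 with KRT7-AS and KRT87P applies to these counts as well. KRT81 was at 0.644, 0.175 and 0.208 CPM and then at 2.61, 2.36 and 2.59 CPM, a log2 change of 2.87 ± 0.55 (adjusted p = 0.00193). KRT20 was at 0.215, 0.875 and 0.625 CPM and then at 2.06, 3.15 and 2.12 CPM, a log2 change of 2.0 ± 0.50 (adjusted p = 0.0245). None of the 3 overlapped between groups. The KRT20 libraries held between 1 and 16 counts each, and its call was lost by DESeq2 (0.133) and without DMSO replicate 1 (0.131), DMSO replicate 3 (0.0527), DNMT1i replicate 1 (0.0534) or DNMT1i replicate 2 (0.130).

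KRT23 was at 12.7, 10.3 and 9.59 CPM and then at 13.5, 15.1 and 24.0 CPM, with DNMT1i replicate 3 well above the others. Its log2 difference of 0.66 ± 0.19 did not pass (adjusted p = 0.0516), but did without DMSO replicate 1 (0.0375), without DNMT1i replicate 1 (0.0201) and with no filter on low counts (0.0215). KRT12 had 0 counts with DMSO in every library and 4, 3 and 1 after DNMT1i, too few to be tested. The hair shaft class summed to 0.856 CPM with DMSO and 5.26 CPM after DNMT1i. KRT8 was at 1416, 1840 and 1818 CPM with DMSO and at 1618, 1634 and 1621 CPM after DNMT1i, with overlap. Its ratio to KRT18 ran from 1.47 to 1.6 with DMSO and from 1.62 to 1.69 after DNMT1i, with no overlap and in the opposite direction to HCT116 cells. With HaloPROTAC3 it ran from 1.40 to 1.48 and from 1.41 to 1.44, with overlap.

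With HaloPROTAC3 the same 3 genes rose and none fell, against 2.86% and 2.55% of all genes. KRT20 and KRT81 were tested here because the DNMT1i libraries without HaloPROTAC3 passed the low count filter. KRT7 was at 1.65, 1.49 and 2.405 CPM with DMSO and at 5.61, 4.72 and 7.22 CPM after DNMT1i, a log2 change of 1.76 ± 0.30 (adjusted p = 0.000363). KRT81 was at 0.660, 0.213 and 0.301 CPM and then at 1.495, 1.18 and 1.88 CPM, a log2 change of 1.96 ± 0.51 (adjusted p = 0.0198). KRT20 was at 0.440, 0.531 and 0.150 CPM and then at 1.12, 0.984 and 1.88 CPM, a log2 change of 1.79 ± 0.54 (adjusted p = 0.0447).

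These groups did not overlap, but both calls on low counts depended on single libraries. The KRT20 call was lost without any 1 of the 6 libraries, with adjusted p between 0.0540 and 0.237, and with no filter on low counts (0.0599). The KRT81 call was lost without the HaloPROTAC3 and DMSO replicate 2 (0.107) or replicate 3 (0.0880), or the HaloPROTAC3 and DNMT1i replicate 3 (0.101). In the fit of only the 6 libraries compared, KRT7 was called, and KRT20 and KRT81 had too few counts to be tested. KRT12 had 1 count with DMSO and 10 after DNMT1i.

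The related lists were read against the same shares of all genes, 1.98% higher and 0.504% lower without HaloPROTAC3 and 2.86% and 2.55% with it. Without HaloPROTAC3, VIM and LMNA rose among 10 other intermediate filament genes tested, and VIM went from 1.79 to 22.5 CPM (log2 change 3.65 ± 0.23). EVPL, EPPK1 and JUP rose and PKP4 fell among 16 desmosome and linker genes, and FOXA2 and ELF3 rose among 12 transcription factor genes. With HaloPROTAC3, VIM rose and LMNB2 fell, 4 desmosome and linker genes fell (DST, DSP, PKP4 and PLEC) and none rose, and FOXA2 and ELF3 rose while CDX2 fell. FOXA2, a factor of the gut lining, had 1 and then 59 counts without HaloPROTAC3, a ratio of 53.9 (95% interval 9.31 to 2166, counting error only). It passed the low count filter only through DNMT1i libraries, so there it could be called only as higher.

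The test of whether HaloPROTAC3 changed the DNMT1i response called none of the 11 keratins, and none had an unadjusted p below 0.05. Over all genes 0.268% were called. The difference of responses was -0.02 ± 0.52 for KRT7, -0.21 ± 0.87 for KRT20 and -0.91 ± 0.85 for KRT81 on the log2 scale, with 95% intervals of -1.05 to 1.01, -1.91 to 1.49 and -2.58 to 0.76.

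HaloPROTAC3 itself, in cells with DMSO, went with more KRT80. KRT80 was at 15.9, 17.3 and 17.9 CPM without the compound and at 31.2, 26.7 and 36.1 CPM with it, a log2 change of 0.93 ± 0.13 (adjusted p = 2.54e-06) with no overlap. In all, 3 of 11 keratins rose and none fell, with 4 at an unadjusted p below 0.05, against 10.1% and 7.28% of all genes. KRT15 was at 13.1, 14.9 and 12.7 CPM and then at 19.9, 17.9 and 19.4 CPM (log2 change 0.55 ± 0.14, adjusted p = 0.00697), again with no overlap.

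KRT19 was at 549, 736 and 734 CPM without HaloPROTAC3 and at 808, 749 and 858 CPM with it. Its log2 change of 0.32 ± 0.09 (adjusted p = 0.011) was lost without DMSO replicate 1, the lowest library (0.105), and without the HaloPROTAC3 replicate 3 (0.0765). Of 16 desmosome and linker genes 9 rose in this comparison and 2 fell, with a median log2 change of 0.36. Shares over all genes were 10.1% higher and 7.28% lower. DSC2, a desmosomal cadherin, rose by 0.89, DST by 0.80 and DSP, which links keratin to desmosomes, by 0.50. Of 10 other intermediate filament genes 3 rose and 2 fell, and of 12 transcription factor genes none rose and 2 fell.

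In cells with DNMT1i the effect of HaloPROTAC3 was called for KRT80, KRT15 and KRT10, all higher, against 12.2% of all genes higher and 10.1% lower. KRT80 was at 16.5, 17.3 and 13.2 CPM without HaloPROTAC3 and at 33.6, 32.3 and 29.8 CPM with it, a log2 change of 1.11 ± 0.13 (adjusted p = 1.86e-07). These groups did not overlap, and they are separate cultures from those with DMSO above. KRT15 was at 15.3, 15.9 and 20.7 CPM and then at 25.2, 20.5 and 21.4 CPM, and the groups overlapped. Its log2 change of 0.49 ± 0.14 (adjusted p = 0.0105) was not called without DNMT1i replicate 1 (0.0933), DNMT1i replicate 2 (0.0593) or the HaloPROTAC3 and DNMT1i replicate 1 (0.0577).

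KRT10 was at 31.6, 30.7 and 31.6 CPM and then at 36.3, 38.2 and 35.5 CPM. Its log2 change of 0.33 ± 0.10 (adjusted p = 0.017) was lost with no composition factor (0.107), with no filter on low counts (0.0849), and without DNMT1i replicate 1 (0.0525), DNMT1i replicate 2 (0.0720) or the HaloPROTAC3 and DNMT1i replicate 2 (0.0589). KRT5 had 2 counts without HaloPROTAC3 and 18 with it, too few for the filter, and was called higher in the fit with no filter. KRT8 stood at a log2 difference of -0.22 ± 0.08 (adjusted p = 0.0569) and was called lower without the HaloPROTAC3 and DNMT1i replicate 3 (0.0275). KRT19 was called higher without the HaloPROTAC3 and DNMT1i replicate 2 (0.25, adjusted p = 0.0497). With no composition factor, which moved the median of all genes to -0.10, KRT15 and KRT80 were called higher and KRT8 lower. The libraries with DMSO and those with DNMT1i each serve in 2 of the HT-CTCF comparisons, so these are not independent of one another. In this comparison 2 of 10 other intermediate filament genes rose and 5 fell. Of 16 desmosome and linker genes 5 rose and 1 fell, and 4 of 12 transcription factor genes fell. Shares over all genes were 12.2% higher and 10.1% lower.

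In K562 speckle cells, 6 hr of dTAG-13 gave no called keratin, except in some alternative fits given below. Of 8 tested, none passed by edgeR's quasi-likelihood test or by DESeq2 and none had an unadjusted p below 0.05, while 1.57% of 14104 genes rose and 3.09% fell. KRT12 was clearly present in this line, at 10.8, 10.6 and 11.8 CPM with DMSO and at 11.7, 13 and 11.2 CPM with dTAG-13. The groups overlapped, and the log2 difference was 0.11 with a 95% interval of -0.09 to 0.32. The level of KRT12 in wild-type K562 cells with DMSO was 0.182 CPM ± 0.058 (SD, n = 3), but line, clone and treatment time differ between these groups and no test was made.

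KRT19 was at 136, 113 and 157 CPM with DMSO and at 141, 154 and 204 CPM with dTAG-13, with a log2 difference of 0.30 ± 0.15 (adjusted p = 0.308), and it was called higher with no filter on low counts (0.32, adjusted p = 0.00271). KRT8 was at 351, 302 and 403 CPM and then at 361, 368 and 472 CPM (0.19 ± 0.12, adjusted p = 0.45). In both groups replicate 3 was the highest for KRT8 and KRT19, and the groups overlapped. In an edgeR fit with a block for replicate number, KRT8 (adjusted p = 0.00702) and KRT19 (0.000386) were called higher. Not every same-numbered pair of libraries was correlated above 0.1, so the numbers were not taken to pair the cultures. KRT27, an inner root sheath keratin, had 26 counts with DMSO and 33 with dTAG-13 in this line, and at most 6 in any wild-type group. Of the related lists, DST rose among 13 desmosome and linker genes. No call was made among 9 other intermediate filament genes or 6 transcription factor genes. Shares over all genes were 1.57% higher and 3.09% lower.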

How the data were processed

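Poly(A) RNA of 30 cultures was sequenced with unique molecular identifiers. Per the labels and the methods of the study, the authors removed duplicates with UMI-tools 1.1.1, trimmed with cutadapt 2.7, aligned to hg38 with STAR 2.6.0 and counted with HTSeq, and they deposited raw counts per gene for each library and raw counts per exon bin. For the strand option of the counting, the sources used here give no value. Tables of the authors' own comparisons hold log2 fold changes and p-values and were not used, nor were the 18 columns of per-sample values in them. Exon bins of 18 libraries (wild-type and speckle cells) were read, and HT-CTCF bins were not used here.

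Of the 60664 gene identifiers, 60463 (99.7%) matched GENCODE 44, and keratins were matched by identifier. Reads not assigned to 1 gene (17.1% to 23.6% of a library) were left out. Gene counts were tested with edgeR 4.0.16 in R 4.3.3 (quasi-likelihood F test, TMM scaling, filterByExpr) with Benjamini-Hochberg adjustment over all genes tested, after the code was tested on simulated data. The K562, HCT116 and speckle comparisons used 6 libraries each, and the HT-CTCF comparisons and those between lines used fits of 12. Differences are ± SE and group means ± SD. Counting intervals at 95% and floors of 3 counts over a group cover counting error only, and shallow libraries leave wide errors on low keratins. Replicates differed by more than counting error in every group (chi-square per degree of freedom at least 1.74).

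Members and lists were chosen with earlier results of these data known. A keratin was named with values if it reached a mean of 1 CPM in a group or was called in a comparison, which gave 21 genes, and related lists are given by counts with up to 3 members of smallest p. KRT27 and members below those limits were named after their values were seen. Alternatives were DESeq2 1.42.0, RLE or no composition factor, no low count filter, a replicate block, other libraries in the fit, the study's size limit, and each library left out. Tables and intervals were made in Python 3.11.15 with pandas 2.3.3 and scipy 1.17.1.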

Additional observations from a re-analysis of the deposited data

Results flagged for a closer look

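The response to 3 days of DNMT1i differed between HCT116 and K562 cells for 3 keratins, by a test of the difference itself (edgeR's quasi-likelihood test, adjusted over all genes). For KRT12 the log2 response was 4.35 higher in HCT116 cells (SE 0.79, adjusted p = 0.000358), with all 3 treated libraries above all DMSO libraries in each line. For KRT15 the difference was -1.53 (SE 0.30, adjusted p = 0.00068), with a rise in K562 cells and overlapping groups in HCT116 cells. For KRT17 it was 6.30 (SE 2.21, adjusted p = 0.037), with 2 counts in each K562 group, and without K562 DMSO replicate 2 it was 3.57 (SE 22.5, adjusted p = 0.973).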

How the results depend on the processing

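The 47 calls of a keratin in a comparison were refitted 571 times under the alternatives. Of these refits 531 kept the direction and the call, 40 kept the direction and lost the call, and 0 reversed. In every refit that gave an adjusted p, 37 calls held. A refit that left a gene untested or without an adjusted p was not counted. This was so for KRT7 after DNMT1i with HaloPROTAC3 by DESeq2. It was also so for KRT32, KRT81 and KRT86 between the lines in the fit of only 6 libraries. Counts of called keratins moved by over 1.5 times as follows, and the cause was not tested. With no low count filter, 1 keratin was called higher after dTAG-13 (KRT19), 2 had a lower response in HCT116 than in K562 cells (KRT15 and KRT8) in place of 1, and 1 was lower with HaloPROTAC3 in DNMT1i (KRT8), as it was with no composition factor and in the fit of only the 6 libraries. In that fit 1 keratin rose after DNMT1i with HaloPROTAC3 (KRT7) in place of 3, since KRT20 and KRT81 were left untested by the filter, and 11 were higher in HCT116 than in K562 cells with DMSO in place of 14, since KRT32, KRT81 and KRT86 were left untested. With the size limit of the study (0.5 on the log2 scale), 1 keratin was higher with HaloPROTAC3 in DNMT1i (KRT80) and 0 were lower in HCT116 than in K562 cells. DESeq2 called 5 higher responses in HCT116 cells (KRT6A, KRT12, KRT14, KRT17 and KRT81) in place of 2. It gave no adjusted p for KRT7, KRT20 and KRT81 after DNMT1i with HaloPROTAC3. With no low count filter 4 further keratins rose in HCT116 cells after DNMT1i (KRT6B, KRT28, KRT31 and KRT40) and KRT19 fell.

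Leaving out 1 library at a time gave 1 to 5 keratins higher in K562 cells after DNMT1i (5 without K562 DMSO replicate 3), 11 to 13 higher and 2 to 4 lower in HCT116 cells, 2 to 3 higher in HT-CTCF cells without HaloPROTAC3 and 1 to 2 with it, 2 to 3 higher with HaloPROTAC3 in DMSO, and 1 to 3 higher and 0 to 1 lower with it in DNMT1i. For the difference of responses between the lines it gave 1 to 3 higher and 1 to 3 lower, with 3 of each without K562 DMSO replicate 3, and for HCT116 against K562 cells with DMSO 14 higher and 1 to 2 lower. Replicate numbers were shared between groups, but in no comparison was every same-numbered pair correlated above 0.1, so they were not taken to pair the cultures. With the replicate block, 2 keratins were called higher after dTAG-13 (KRT8, adjusted p = 0.00702, and KRT19, 0.000386) and 2 had a lower response in HCT116 cells (KRT8 and KRT15). For KRT20 after DNMT1i with HaloPROTAC3, the block gave an adjusted p of 0.0581. KRT20 and KRT81 held at most 19 counts in a library of HT-CTCF cells, which limits their precision.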
